A study of Caenorhabditis elegans with 4 samples.

Results

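ELT-1 regions called in both ChIP replicates were 244 of the 470 regions in the replicate 2 list. They were chosen by a single rule, that a replicate 2 region overlapped any replicate 1 region on the same chromosome by at least 1 bp. The remaining 226 replicate 2 regions overlapped none. The replicate 1 list was shorter, with 251 regions, and 6 of these (2.39%) overlapped no replicate 2 region. The regions came from L2 larvae of strain OP354, hermaphrodites grown at 20 °C. The strain is unc119(ed3) with the transgene wgIs354, in which elt-1 is joined to TY1, EGFP and FLAG tags and which also carries unc119 as the transformation marker. Every sample of the series shares this genotype, and the line was made by bombardment. The labels name no change at the worms' own elt-1 gene and do not give the promoter that drives the tagged copy. Tagged ELT-1 was precipitated from whole-worm chromatin with goat antibodies against GFP in 2 ChIP samples, and 2 input samples are also labelled. The measurement is chromatin immunoprecipitation followed by sequencing (ChIP-seq), in which stretches of the genome that come down with a protein are called as regions.

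ELT-1 is a GATA factor, a transcription factor whose zinc fingers recognise short DNA sites built around the letters GATA. In the embryo of C. elegans it acts early in the epidermal lineage, where epidermal cells are not specified without it, and it is followed there by other GATA factors that keep epidermal cells differentiated. The larval epidermis, or hypodermis, secretes the cuticle at each molt and includes the seam cells, which go on dividing through larval life. Whole larvae also hold gut, muscle, neurons and germ cells, so a region records precipitation somewhere in the animal and not in a named cell type.

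The members were thus fixed by the region calls themselves, and their number, strength and width are given as a description without a test. The authors' program PeakSeq gave each region a q-value, an error rate adjusted for the many places examined, and a low q-value marks a strong region. The q-value depends on the depth of a library, which is unknown here, so it was used to order regions within a list. Where the q-values of both lists are printed, their sizes are not compared between lists. Which reads each list was called on is not given in the sources used here. Of the 244 regions, 19 had the same start and 22 the same end as their replicate 1 partner, to the base. If reads were shared, the lists are not independent; this was not tested. All positions are on WormBase release WS180.

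The rule left a clear margin. The member with the fewest shared bases, on chromosome IV from 7488035 to 7488155, was 121 bp wide and shared 85 bp with a replicate 1 region of 85 bp. The next 4 shared 153 bp on chromosome V, 176 bp on chromosome II, and 199 and 200 bp on X. Outside the rule, the nearest remaining region lay on X from 10302424 to 10302678, 239 bp from a replicate 1 region. The next nearest lay 258 bp away on chromosome II, 345 and 562 bp away on chromosome V and 605 bp away on chromosome III. With a reciprocal overlap of at least 50%, 49.6% of the replicate 2 list would be members, and with centres within 200 bp 50.4%. In all, 14 of the 226 remaining regions (6.19%) lay within 1000 bp of a replicate 1 region, and the median gap was 121 kb.

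Members took the front of the replicate 2 order. The first 86 regions were all members, and the first remaining region came at order 87 with a q-value of 8.98e-12. The median order was 125.5 for members and 341.5 for the others, and the last member stood at 444, with a q-value of 7.73e-05. As a background, 51.9% of all replicate 2 regions were members. The replicate 1 list holds only 251 regions, so this share also depends on the length of that list. The count was 114 of 117 for orders 1 to 117, 82 of 118 for orders 118 to 235, 35 of 117 for orders 236 to 352 and 13 of 118 for orders 353 to 470. The rule used these calls, so nothing further is read from this gradient.

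**Figure D1:**
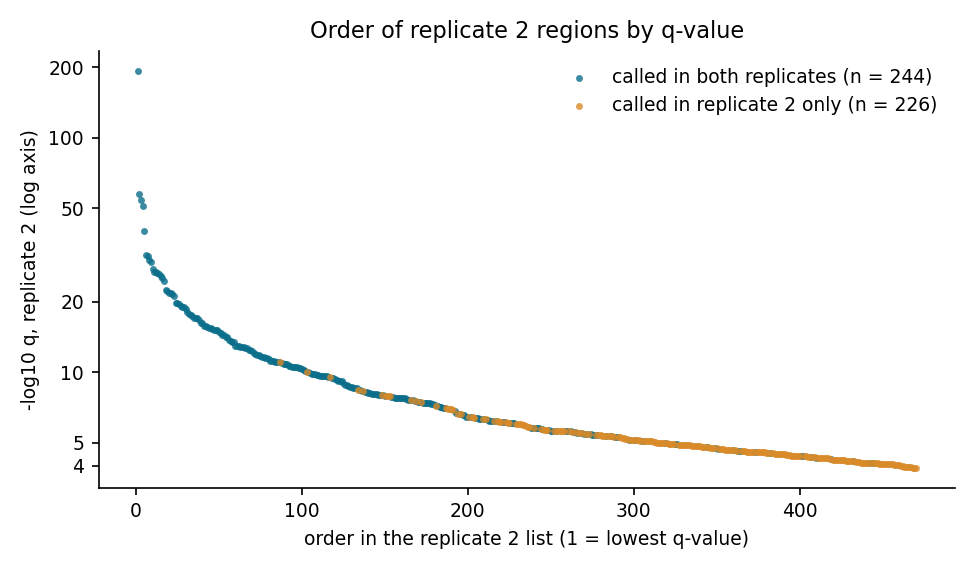
Each point is a replicate 2 region, placed by its order in the list (x axis, 1 is the lowest q-value) and its −log10 q (y axis, log scale). The first 86 points are members, and the remaining regions begin at order 87 and fill most of the list after order 353, where 13 of 118 are members.

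The strongest members are given here by chromosome, 3 on each, with the q-values of both lists. The first on chromosome IV, from 9612716 to 9620283, reached 5.02e-194 in replicate 2 and 1.69e-146 in replicate 1. The next, from 1911128 to 1911847, had 1.97e-58 and 2.34e-40, and the one from 14032736 to 14034510 had 7.32e-26 and 1.22e-18. The first of these was first in both lists and 7568 bp wide, the widest of all members. The WBcel235 gene table places elt-1 on chromosome IV too, but its coordinates are on another build and were not compared, and the transgene adds a further copy of the gene. Another wide member, from 9606842 to 9611343, lay 1372 bp from the 7568 bp region. Whether either of them marks the elt-1 locus or the transgene was not tested.

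Chromosome V held 3 of the first 6 regions. The one from 14506570 to 14507183 reached 9.34e-55 in replicate 2 and 7.05e-36 in replicate 1. The one from 19428033 to 19430547 had 5.84e-52 and 2.21e-36. The third, from 801495 to 802617, had 2.07e-32 and 7.63e-19. The middle one of these stood alone, with no other member within 2516 kb, whereas the first had another member 464 bp away.

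On the X chromosome the strongest member ran from 6091944 to 6092890, with a q-value of 9.41e-31 in replicate 2 and 8.21e-21 in replicate 1. The next pair ran from 12511228 to 12511732 and from 12515736 to 12516391, with 1.83e-27 and 3.99e-27 in replicate 2. In replicate 1 these had 2.31e-19 and 9.93e-16. The pair lay 4003 bp apart, so the strongest X members included close neighbours.

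The other chromosomes each had 1 member in the first 10. On chromosome I it ran from 8985534 to 8986323 (1.35e-40 in replicate 2, 1.25e-20 in replicate 1). On chromosome II it ran from 15213628 to 15214101 (3.89e-32 and 5.21e-18), and this was the last region of any list on that chromosome. On chromosome III it ran from 5838260 to 5838992 (2.21e-28 and 1.37e-16). After these the order dropped quickly on all 3. The next on chromosome I, from 6835218 to 6835979 and from 9332465 to 9333416, stood at 31 and 32. On chromosome II, those from 7801774 to 7802281 and from 13638465 to 13638963 stood at 41 and 70. On chromosome III, those from 7305217 to 7305850 and from 3797139 to 3797521 stood at 23 and 38.

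Members were then ordered among themselves, once by each list's q-values, so that both orders have 244 places. The first 10 places shared 7 regions, the first 25 shared 23 and the first 50 shared 45. The median difference between the places was 18 (interval 13 to 21), and the largest was 139. The regions and, perhaps, the reads are shared by both orders, so this is a description of the lists and no test was made. Intervals here are 95% exact binomial intervals, taken over regions and covering counting error only. They treat regions as independent, which neighbours are not.

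**Figure D2:**
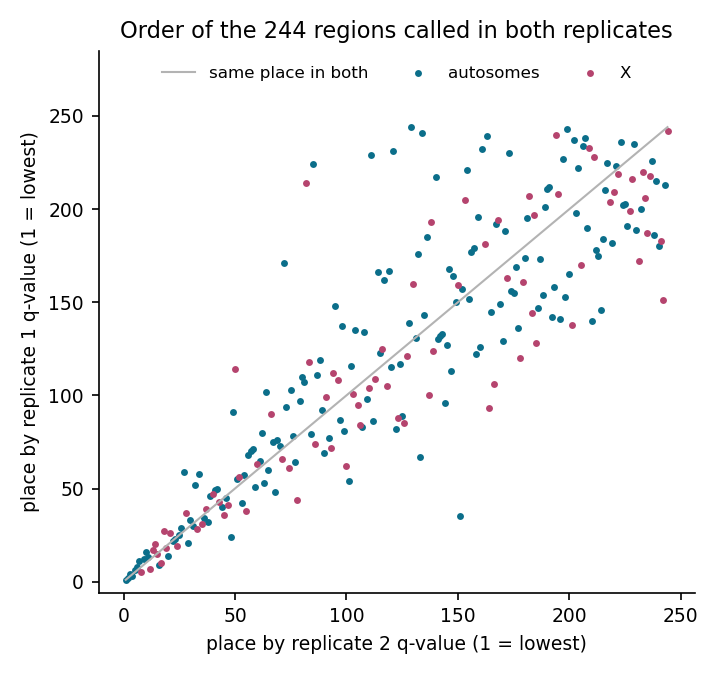
Each of the 244 points is a region called in both replicates, placed by its order among these regions in replicate 2 (x axis) and in replicate 1 (y axis), with X regions in a second colour. The first 50 places of both orders share 45 regions, single points lie well off the line there as elsewhere, and the largest difference is 139 places.

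A few members stood far apart in these orders. The region on chromosome IV from 9606842 to 9611343 held place 85 in replicate 2 and 224 in replicate 1. It was 4502 bp wide, and 2 replicate 1 regions, the stronger of them 702 bp wide, lay inside it. The region on chromosome V from 12538584 to 12539780 held places 129 and 244, and was 1197 bp wide against 446 bp in replicate 1. On X, the region from 6669035 to 6669668 held places 82 and 214, with widths of 634 and 253 bp. The 5 that were named for lying later in the replicate 1 order also included regions from 7213466 to 7214060 on chromosome I (134 and 241) and from 12965078 to 12965392 on chromosome II (111 and 229). All 5 were wider in replicate 2 than in replicate 1, as were 208 of the 244 members.

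Others came earlier by replicate 1. The region on chromosome III from 931226 to 931777 held place 151 in replicate 2 and 35 in replicate 1. That on X from 2040982 to 2041190 held places 242 and 151, and that on X from 13119916 to 13120197 held 241 and 183. The last 2 named were on chromosome IV from 3097046 to 3097348 (240 and 180) and chromosome III from 8417158 to 8417877 (238 and 186). Regions were picked for these lists by place as a percentage of each whole list. By place among members, some regions not picked moved further than some named here. Examples are those on X from 2907201 to 2907555 (164 and 93) and on chromosome II from 7799657 to 7799879 (210 and 140). The lists differ in length, so such differences do not measure a change in binding.

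Called edges matched closely. Of the 244 members, 243 had a single replicate 1 partner, the exception being the wide chromosome IV region described above. The centres of a member and its strongest partner lay a median of 15 bp apart (interval 13 to 16.5), and 213 (87.3%, interval 82.5 to 91.2) were within 50 bp. Replicate 1 covered a median of 89.3% of a member's width (interval 87.6 to 90.4), and 233 were covered by at least 50%. Over all 244 members, the median ratio of replicate 2 width to replicate 1 width was 1.11. The replicate 2 region was the wider in 208 (85.2%, interval 80.2 to 89.4). It reached past its partner on both sides in 144, on the left only in 45, on the right only in 40 and on neither side in 15. The median extension was 19.5 bp on the left and 18 bp on the right.

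Over the whole list, members were broader than the remaining regions. The median width was 404 bp (interval 378 to 428) for members and 310.5 bp (interval 294 to 336) for the others. Of the members 73 were wider than 500 bp (29.9%), against 26 of the others (11.5%). Members made up 124 kb of the 203 kb that the replicate 2 list covers. A wider region meets a replicate 1 region more easily, and the median width was higher toward the front of the order. Width is therefore not independent of the rule, and no test was made.

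Within a stretch of the order, members were not the broader set by more than 5 bp. For orders 118 to 235 the median was 362.5 bp in members (interval 338 to 383) and 357.5 bp in the others (307 to 397). For orders 236 to 352 it was 333 bp (303 to 356) and 332 bp (290 to 354). For orders 353 to 470 it was 286 bp (242 to 327) and 288 bp (269 to 313). For orders 1 to 117 it was 475 bp in 114 members, and the 3 remaining regions were 701, 764 and 1455 bp wide. Those 3 lay on chromosome V from 800373 to 801073, on chromosome II from 6829019 to 6829782 and on chromosome IV from 3232670 to 3234124.

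**Figure D3:**
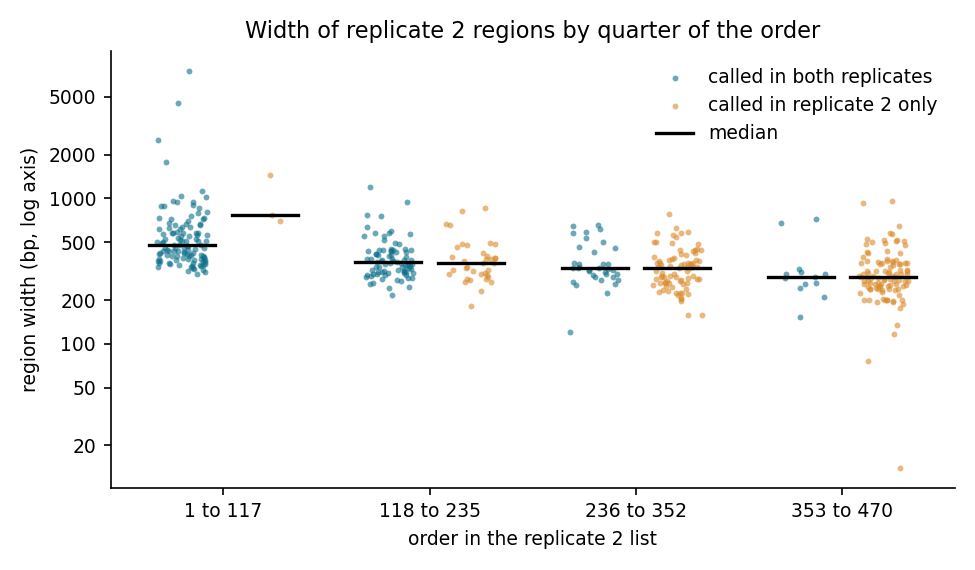
Region width in bp (log axis) for members and for regions called in replicate 2 only, split by order in the replicate 2 list, with black bars at the medians. In the last 3 groups along the x axis the medians are 362.5 and 357.5, 333 and 332, and 286 and 288 bp, while the first group holds 114 members and 3 other regions.

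The 5 widest members were spread over 2 chromosomes. They were the chromosome IV regions of 7568, 4502 and 1775 bp and the chromosome V regions of 2515 and 1197 bp. The first pair lay 1372 bp apart. Only 8 members (3.28%) were wider than 1000 bp, and the 244 ranged from 121 to 7568 bp.

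Spacing was measured edge to edge. A member's nearest fellow member lay at a median of 59.4 kb (interval 35.6 to 91.0), with a range from 239 bp to 2516 kb. From a remaining region to the nearest of its own kind the median was 131 kb (interval 93.4 to 174). With every replicate 2 region counted as a neighbour, the median gap was 22.3 kb for members (interval 9.35 to 35.6) and 39.8 kb for the remaining regions (interval 25.5 to 59.7), and these intervals overlap. Within 2000 bp, 59 members (24.2%, interval 18.9 to 30.1) and 51 remaining regions (22.6%, interval 17.3 to 28.6) had another replicate 2 region. Within 10000 bp the counts were 108 (44.3%, interval 37.9 to 50.7) and 79 (34.96%, interval 28.8 to 41.6). No test was made of these differences, since close regions share their position and are not independent.

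**Figure D4:**
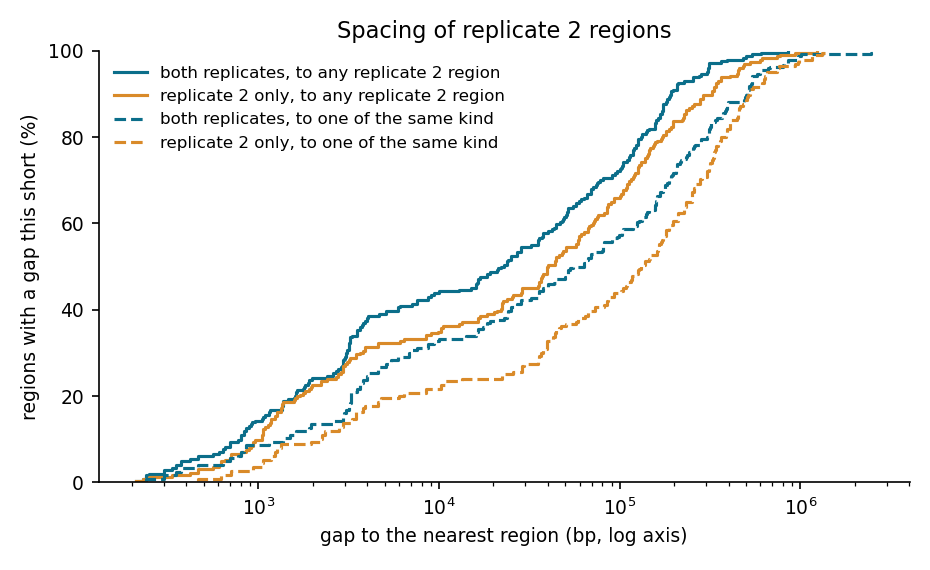
The x axis is the gap to the nearest region in bp (log axis) and the y axis the percentage of regions with a gap that short, for members and for regions called in replicate 2 only. Solid lines count any replicate 2 region as a neighbour and dashed lines count only those of the same kind. At 2000 bp the solid lines stand at 24.2% and 22.6%, and at 10000 bp at 44.3% and 34.96%.

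A fellow member lay within 2000 bp for 33 members (13.5%, interval 9.50 to 18.5). Of the 226 remaining regions, 30 had a member that close (13.3%, interval 9.14 to 18.4) and 21 another remaining region (9.29%, interval 5.84 to 13.9). By order, members with a fellow member this close were 21 of 114 in orders 1 to 117 (18.4%, interval 11.8 to 26.8). They were 7 of 82 in orders 118 to 235 (8.54%, interval 3.50 to 16.8), 4 of 35 in orders 236 to 352 and 1 of 13 in orders 353 to 470. Members are denser at the front of the order, the intervals overlap and no test was made, so no order of grouping is read from this. The closest pair was on X, where 239 bp separated the region from 10768483 to 10768978 from that from 10769218 to 10769673. On chromosome I, 302 bp separated the strongest member from its neighbour, which ran from 8986626 to 8987654.

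Replicate 2 regions were joined into loci where the gap was at most 10000 bp. This gave 356 loci, of which 197 held a member. In 161 of them there was 1 member, in 27 there were 2, in 7 there were 3 and in 2 there were 4, a mean of 1.24 members per locus. Of all loci, 157 held members only, 159 held remaining regions only and 40 held both kinds. At least 2 regions were joined in 21 of the members-only loci and in 12 of the remaining-only loci. The 40 mixed loci contained 59 members and 53 remaining regions, and in each of the 40 the lowest q-value belonged to a member. Members are the stronger regions by their selection, so this is a description.

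The 9 loci with at least 3 members lay on chromosomes II, IV, V and X. The most compact was on chromosome IV from 3438027 to 3441265, where 3 members of 439, 807 and 582 bp stood at orders 67, 27 and 36 within 3.24 kb. On X from 10765975 to 10769673, 3 members stood at orders 52, 143 and 40 within 3.70 kb. On chromosome II from 7799657 to 7803450, 3 members stood at orders 264, 41 and 195 within 3.79 kb. A chromosome V locus from 538405 to 542915 held 4 members at orders 161, 20, 239 and 222. The loci on chromosomes II and V each joined 1 region in the first 41 to others past order 160, whereas all 3 on chromosome IV were in the first 67.

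A further pair of loci on X held only members of the first 78. From 12500602 to 12516391 there were 3 members, at orders 17, 12 and 13, in 15.8 kb. From 6737307 to 6744300 there were 3 at orders 78, 33 and 14, in 6.99 kb. The longest locus, on chromosome II from 6821068 to 6843124, held 4 members at orders 75, 138, 123 and 128 and 1 remaining region at order 117. The other loci were on chromosome IV. The one from 8241395 to 8255566 held 3 members at orders 228, 93 and 58 and 1 remaining region at order 463. The one from 11899068 to 11909057 held 3 members at orders 25, 147 and 157 and 1 remaining region at order 219.

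Some remaining regions flanked members. Of the 226, 30 (13.3%, interval 9.14 to 18.4) lay within 2000 bp of a member. Their nearest members were 27 different regions. Of these 30, 28 had a higher q-value than the nearest member and 25 were narrower. Members were the stronger and wider set over the whole list, so these counts are a description only. The median order of the 30 was 346.5, against 341.5 for the 196 farther away, so the flanking regions were placed in the list much like the rest. The strongest remaining region of all, on chromosome V from 800373 to 801073, lay 421 bp from a member at order 6. The next 4 lay 135 kb, 3198 bp, 69.4 kb and 560 bp from a member.

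Members were unevenly spread over the chromosomes. X held 80 of the 244 (32.8%, interval 26.9 to 39.1) on 17.8% of the total length, chromosome II held 40, chromosome IV 37, chromosome V 36, chromosome III 33 and chromosome I 18. Per Mb this was 4.52 members on X, 2.63 on II, 2.42 on III, 2.14 on IV, 1.74 on V and 1.20 on I. X also held 125 of all 470 replicate 2 regions and 45 of the 226 remaining ones (19.9%, interval 14.9 to 25.7). The remaining regions were more even, with 2.54 per Mb on X and a range from 1.54 on III to 2.71 on V. Per 1000 protein-coding genes in the WBcel235 table, X had 29.3 members and the autosomes ranged from 6.26 on I to 12.5 on III. For the remaining regions the values were 16.5 on X and 7.95 to 11.9 on the autosomes.

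The share of a chromosome's replicate 2 regions that were members is read against 51.9% for the whole list. It was 64.0% on X (interval 54.9 to 72.4), 61.1% on III (46.9 to 74.1), 55.2% on IV (42.6 to 67.4) and 49.4% on II (38.1 to 60.7). It was 39.1% on V (29.1 to 49.9) and 35.3% on I (22.4 to 49.9). The values for X, III and IV lay above 51.9% and those for II, V and I below it. That 51.9% is taken over the same regions, so the intervals are not read as tests against it. Chromosomes were not tested against each other, because the regions come from a single list and are no replicates.

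Strength moves with this share, so it was also taken within stretches of the order. In orders 1 to 117, 39 of 39 X regions and 75 of 78 autosomal regions were members. In orders 118 to 235 it was 24 of 29 on X (82.8%, interval 64.2 to 94.2) and 58 of 89 on the autosomes (65.2%, interval 54.3 to 74.96). In orders 236 to 352 it was 10 of 31 (32.3%) and 25 of 86 (29.1%). In orders 353 to 470 it was 7 of 26 (26.9%, interval 11.6 to 47.8) and 6 of 92 (6.52%, interval 2.43 to 13.7). The X value was the higher in each stretch, and the intervals overlapped in each. Overlap of intervals does not show that shares are equal, and no test was made.

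**Figure D5:**
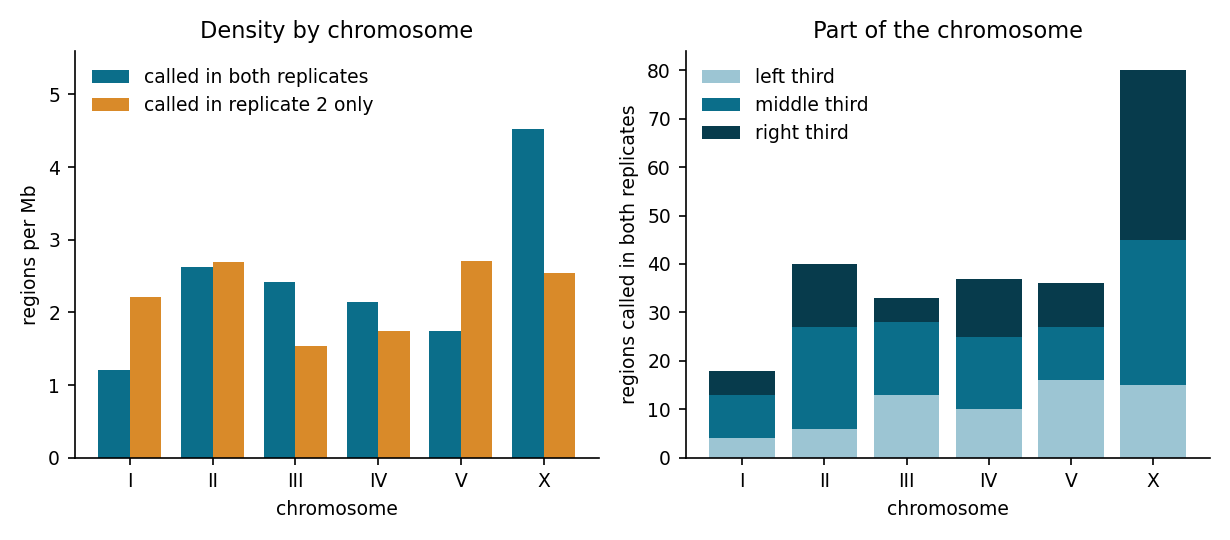
The left panel shows regions per Mb on each chromosome for members and for regions called in replicate 2 only, and the right panel the number of members in the left, middle and right 33.3% of each chromosome. Members reach 4.52 per Mb on X and 1.20 on chromosome I, and 35 of the 80 X members lie in the right part.

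Along the chromosomes, 64 members had their centre in the left 33.3% of the length, 101 in the middle and 79 in the right. The middle share was 41.4% (interval 35.1 to 47.9), and 37.6% (31.3 to 44.3) for the remaining regions, with overlapping intervals. Chromosome II had 6, 21 and 13 members from left to right and chromosome I had 4, 9 and 5. Chromosome III had 13, 15 and 5, and chromosome IV had 10, 15 and 12. Chromosome V had 16, 11 and 9, the only chromosome where the left part held the most. X had 15, 30 and 35, and its right part held the most. Lengths were taken as the last called base on each chromosome, so the parts are approximate.

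Long stretches separated neighbouring members. The longest between 2 members was on chromosome V, 3.01 Mb from 1618825 to 4628429, and 6 remaining regions lay inside it. Chromosome I had 2.91 Mb with 4 remaining regions, chromosome III 2.62 Mb with 3 and chromosome IV 2.37 Mb with 4. X had 1.45 Mb, from 586117 to 2040982, with 0 remaining regions, and chromosome II had 1.23 Mb with 5. On chromosome II the stretch before the first member, which started at 2800790, was longer than this and held 4 remaining regions. The fullest 1 Mb was on X, where 12 members lay from 12500602 to 13251572. The fullest on chromosome V held 7 members in 0.268 Mb, from 538405 to 806166, with 5 remaining regions among them. The other chromosomes reached 8 on II and IV, 6 on III and 4 on I.

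The combined list added little on the members. Of the 244, 243 overlapped a combined region, 171 had the same start and end there and 206 the same q-value. For the 226 remaining regions these counts were 224, 170 and 195. As shares, 70.1% of members and 75.2% of the others had both edges unchanged, and 84.4% and 86.3% the same q-value. The combined list repeats much of the replicate 2 list in both sets, so it was not used as a further measurement of either.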

How the data were processed

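ELT-1 ChIP-seq regions from L2 larvae were used as 2 replicate lists and a combined list. Regions were called with PeakSeq per the file headers, which name build WS180 of WormBase. The value per region is the q-value, a p-value adjusted by the authors. Aligner, control, filters, threshold and reads behind each list: not given in the sources used here. Depth is therefore unknown. Replicates are samples the labels number; separate cultures are not stated. Samples were grouped by title, because the description field contradicts title and source name. Regions were ordered by q-value, and ties kept their deposited order. Members, named regions and limits were chosen with earlier results of these data known. Named regions were the 3 strongest members per chromosome, the 5 widest members, the 5 that differed most in order in each direction, the 5 with the fewest shared bases, the 5 remaining regions that were strongest and the 5 nearest to replicate 1, and loci of 3 or more members. Medians carry order-statistic intervals and shares Clopper-Pearson intervals, both at 95%. Functions were tested on simulated data. No test across regions was made, and no region was given a gene or a sequence, since a WS180 genome was not used here. Python 3.11.15, NumPy 2.4.6, SciPy 1.17.1 and matplotlib 3.10.9 were used.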

Additional observations from a re-analysis of the deposited data

How the results depend on the processing

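Each value was recomputed under alternatives for the overlap rule, list strength, very wide regions, joining of close regions and distance limits. Of 46 alternatives over 8 values, 41 stayed within 1.5 times the count or within the interval of the reported value. The number of members was 233 with a reciprocal overlap of 50%, 237 with centres within 200 bp and 232 after joining regions within 1000 bp. The median order of members was 26.7% of the list and 42.3% in the stronger 50% of the list, which holds fewer regions. The share of members with a fellow member within 2000 bp was 13.5%, and 6.03% once regions up to 1000 bp apart had been joined, since such neighbours then count as 1. With 500 bp as the limit it was 4.10%, and with 10000 bp 33.2%. The share in the middle 33.3% was 41.4%, and 61.5% lay in the middle 50%. These last 3 values differ by construction, since the limit itself differs. No paired analysis was possible because no result comes from a test and the inputs have no values here. The alternatives for the overlap geometry were chosen after seeing the data. Sequence under members was not examined. Leaving out a replicate was not possible, since the rule needs both.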
